A study of Mus musculus with 16 samples.

Results

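The genes described here are 8 genes known for mast cells and basophils: Mcpt8, Cpa3, Gzmb, Prss34, Hdc, Ms4a2, Fcer1a and Il1rl1. A gene was taken from the row of the deposited array table whose annotation gives that symbol alone. This gave 1 row each for 7 of the 8 genes, among 22961 rows with a gene symbol that cover 19937 distinct single symbols. No row carried Il1rl1, which encodes the receptor for interleukin-33, and that gene was not analysed here.

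Mast cells and basophils are granulocytes of allergic and antiparasite responses that arise from progenitors in the bone marrow. Both store histamine and serine proteases in granules and carry the high-affinity receptor for immunoglobulin E (IgE), whose cross-linking by antigen releases the granules. Granule proteases and the enzyme of histamine synthesis are switched on in progenitors before the cells mature, and some of these genes are also used by early progenitors or by other granulocytes.

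The study asked how haematopoietic stem and progenitor cells of wild-type (WT) and Parp-2-/- C57BL/6J mice differ in gene expression, with and without gamma irradiation. Parp-2 is an enzyme that responds to DNA breaks by building poly(ADP-ribose). Bone marrow cells were sorted as LSK cells (Lin-Sca1+c-Kit+, which hold the stem cells and the earliest progenitors) or as MP cells (Lin-Sca1-c-Kit+ myeloid progenitors). The 8 groups were WT LSK, Parp-2-/- LSK, WT MP and Parp-2-/- MP cells, each unirradiated or 2.5 hours after 5 Gy. Each group had 2 pools, a pool came from at least 3 mice, and each pool was measured on 1 array. The labels do not say which part of Parp2 was deleted or whether pools shared mice, so p-values measure only the spread between these pools.

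Levels are log2 intensities, so a difference of 1 is a doubling. The medians of the 16 arrays lay between 4.74 and 4.92, and levels under that of their own array may be background. With 2 arrays a group the precision is limited, and the standard error (SE) of a difference between 2 groups was 0.28 (Ms4a2) to 0.39 (Cpa3). Parp2 read 5.70 to 7.11 on the 8 Parp-2-/- arrays against 7.40 to 8.40 on the 8 WT arrays. All 6 measured p53 targets rose after irradiation in LSK and MP cells of both genotypes. Kit, which marks both sort gates and is also a mast cell receptor, was above the array median on all 16 arrays.

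The windows of 250 bases before the gene start are shown for the 5 genes with lower levels in LSK than MP cells, since GATA and RUNX factors are known to act in mast cell and basophil progenitors. They are printed 5′ to 3′ on the gene's strand, from RefSeq on assembly GRCm38.p6, and capitals mark, on either strand, the GATA letters AGATAA or, in their other form, TGATAA, and the RUNX letters TGTGGT. The first is on the minus strand of chr14:56085198-56085447, the second on the minus strand of chr3:20242182-20242431, the third on the minus strand of chr14:56262335-56262584, the fourth on the minus strand of chr19:11623720-11623969 and the fifth on the minus strand of chr2:126618679-126618928.
Mcpt8: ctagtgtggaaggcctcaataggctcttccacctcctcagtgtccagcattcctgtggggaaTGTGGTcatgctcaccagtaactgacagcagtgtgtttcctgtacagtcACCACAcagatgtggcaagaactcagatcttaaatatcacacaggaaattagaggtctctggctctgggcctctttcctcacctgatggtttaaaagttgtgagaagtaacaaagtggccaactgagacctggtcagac
Cpa3: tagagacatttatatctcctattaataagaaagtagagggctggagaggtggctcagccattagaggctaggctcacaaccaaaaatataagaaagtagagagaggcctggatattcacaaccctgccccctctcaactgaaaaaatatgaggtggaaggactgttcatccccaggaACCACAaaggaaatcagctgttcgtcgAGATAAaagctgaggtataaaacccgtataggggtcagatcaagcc
Gzmb: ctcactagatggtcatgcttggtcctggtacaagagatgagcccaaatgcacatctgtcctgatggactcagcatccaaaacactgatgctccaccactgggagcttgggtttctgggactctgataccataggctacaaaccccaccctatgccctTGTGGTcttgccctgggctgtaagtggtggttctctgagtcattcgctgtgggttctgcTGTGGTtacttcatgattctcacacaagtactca
Ms4a2: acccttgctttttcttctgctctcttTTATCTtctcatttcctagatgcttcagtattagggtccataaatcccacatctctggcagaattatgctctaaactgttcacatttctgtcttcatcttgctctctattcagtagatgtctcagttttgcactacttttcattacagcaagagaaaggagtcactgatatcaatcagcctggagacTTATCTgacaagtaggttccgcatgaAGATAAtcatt
Hdc: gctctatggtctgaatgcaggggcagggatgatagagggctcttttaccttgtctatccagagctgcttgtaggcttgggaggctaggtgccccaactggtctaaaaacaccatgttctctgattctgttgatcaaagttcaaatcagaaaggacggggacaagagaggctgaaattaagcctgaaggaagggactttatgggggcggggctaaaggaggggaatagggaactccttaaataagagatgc
A GATA match was found in the windows of 4 of the 7 genes (Cpa3, Ms4a2, Fcer1a and Prss34) and in 16.6% of 32851 RefSeq windows of this length. A RUNX match was found in 4 of 7 (Mcpt8, Cpa3, Gzmb and Fcer1a) and in 14% of all windows. The Cpa3 window holds an AGATAA from -46 to -41 and a TATAAA from -31 to -26 relative to the start. The Ms4a2 window holds the GATA letters 3 times, and the Hdc window holds neither motif. These matches describe letters in a window and not bound sites. Searches of both strands found each of 3 further motifs in 2 of 7 genes: CATGTG, an E-box that the mast cell factor Mitf can bind, against 12.3% of all windows, GAGGAA, a PU.1 motif, against 23.3%, and TATAAA, the TATA box, against 12.4%.

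Mcpt8 encodes mast cell protease 8, a granule protease that marks basophils and their progenitors. In LSK cells its level was 5.65 and 5.44 in the WT pools and 6.59 and 7.69 in the irradiated WT pools. In Parp-2-/- LSK cells it was 5.40 and 5.29 unirradiated and 6.36 and 5.40 irradiated. Both irradiated WT pools therefore lay above all 6 other LSK arrays, and 1 irradiated Parp-2-/- pool lay above every unirradiated LSK array while the other did not. In MP cells the levels were 7.80 and 7.81 (WT), 8.34 and 8.40 (irradiated WT), 7.69 and 7.15 (Parp-2-/-) and 7.78 and 7.32 (irradiated Parp-2-/-). Irradiated WT LSK pool 2 reached the range of the Parp-2-/- MP pools. Ordered by mean, the groups ran from Parp-2-/- LSK (5.34), WT LSK (5.54) and irradiated Parp-2-/- LSK (5.88) to irradiated WT LSK (7.14), Parp-2-/- MP (7.42), irradiated Parp-2-/- MP (7.55), WT MP (7.81) and irradiated WT MP (8.37). The step of 1.26 between the irradiated LSK groups was 3.58 SE, and every other step between neighbours was at most 1.60 SE.

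**Figure D1:**
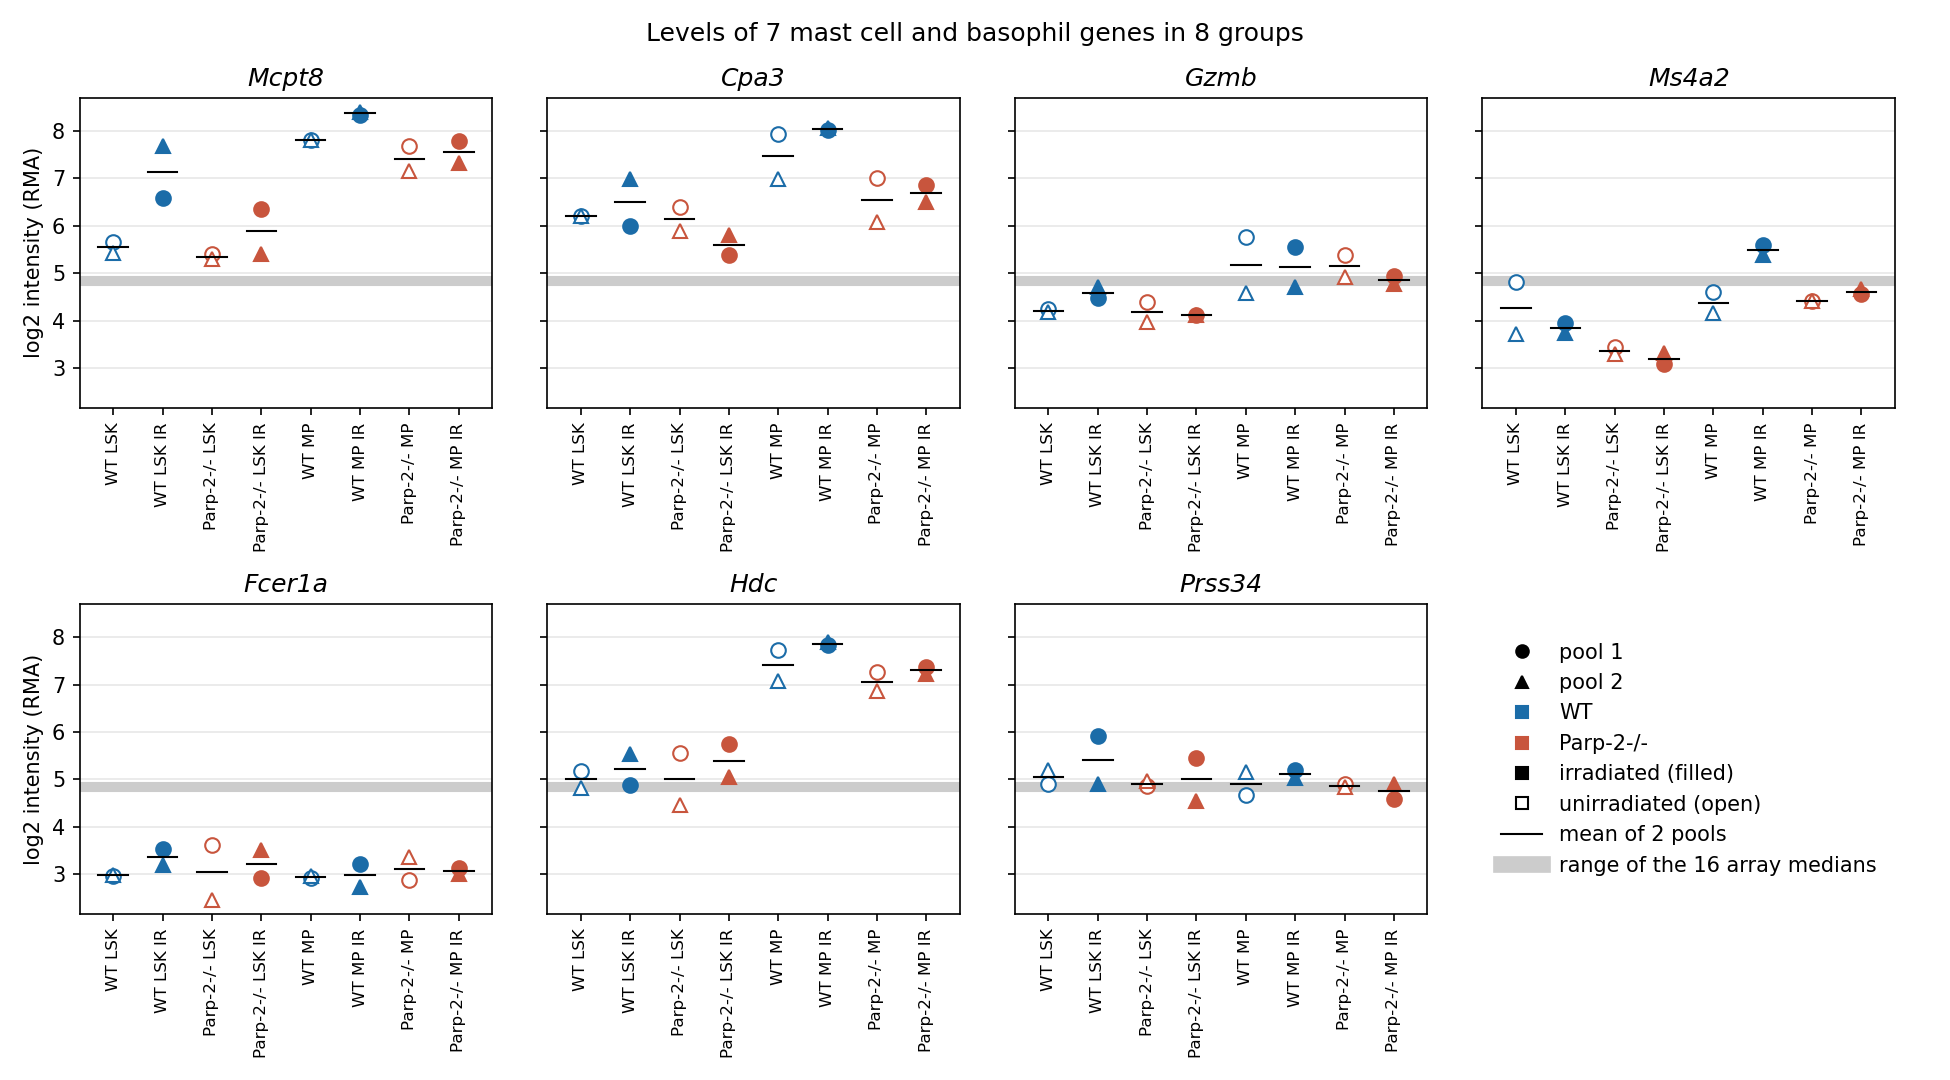
Log2 intensity of the 7 measured genes on all 16 arrays, with 1 panel per gene and the 8 groups on the horizontal axis (circles pool 1, triangles pool 2, blue WT, red Parp-2-/-, filled irradiated, bar the mean of 2 pools). Grey bands span the 16 array medians, 4.74 to 4.92. Mcpt8, Cpa3 and Hdc have their highest values in MP cells, and Fcer1a lies below the band on every array.

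Cpa3, the carboxypeptidase of mast cell granules, is also known to be expressed in early haematopoietic progenitors. It read 6.21 and 6.21 in WT LSK cells, 6.00 and 6.99 in irradiated WT LSK cells, 6.40 and 5.88 in Parp-2-/- LSK cells and 5.38 and 5.81 in irradiated Parp-2-/- LSK cells. Both irradiated Parp-2-/- pools were lower than all 6 other LSK arrays. In MP cells it read 7.94 and 6.997 in WT, 8.03 and 8.08 in irradiated WT, 7.02 and 6.08 in Parp-2-/- and 6.85 and 6.51 in irradiated Parp-2-/-. All 16 arrays were above their median. The means ran from 5.59 in irradiated Parp-2-/- LSK cells to 8.05 in irradiated WT MP cells, and the widest step between neighbours, from irradiated Parp-2-/- MP (6.68) to WT MP (7.47), was 2.04 SE.

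Gzmb encodes granzyme B, a protease of cytotoxic lymphocytes that mast cells and basophils can also make. Its level lay below the array median on all 8 LSK arrays, between 3.98 and 4.70, and above it on 5 of the 8 MP arrays. The MP levels were 5.76 and 4.59 (WT), 5.56 and 4.70 (irradiated WT), 5.38 and 4.92 (Parp-2-/-) and 4.95 and 4.77 (irradiated Parp-2-/-). Pool 1 was higher than pool 2 in all 4 MP groups, by 0.17 to 1.18. No step between neighbouring group means exceeded 1.10 SE.

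Prss34, the basophil protease mast cell protease 11, stayed between 4.54 and 5.91, close to the array medians. Its highest value was 5.91 in irradiated WT LSK pool 1, while pool 2 of that group read 4.90. The irradiated Parp-2-/- LSK pools read 5.46 and 4.54. No step between its neighbouring group means exceeded 0.86 SE.

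Hdc encodes histidine decarboxylase, which makes histamine in basophils, mast cells and some other myeloid cells. Its 8 LSK values ran from 4.47 to 5.74 and its 8 MP values from 6.86 to 7.89, so the cell types did not overlap. The MP pools read 7.74 and 7.08 (WT), 7.84 and 7.89 (irradiated WT), 7.26 and 6.86 (Parp-2-/-) and 7.38 and 7.23 (irradiated Parp-2-/-). Among LSK groups the means lay between 5.00 and 5.39, and no step there exceeded 0.56 SE.

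Ms4a2 encodes the beta chain of the IgE receptor and Fcer1a its IgE-binding alpha chain. Ms4a2 was above the array median only in irradiated WT MP cells, at 5.59 and 5.38. It read 4.60 and 4.15 in WT MP, 4.42 and 4.42 in Parp-2-/- MP and 4.56 and 4.66 in irradiated Parp-2-/- MP cells. In LSK cells it read 4.80 and 3.72 (WT), 3.95 and 3.73 (irradiated WT), 3.44 and 3.30 (Parp-2-/-) and 3.08 and 3.31 (irradiated Parp-2-/-). All 4 Parp-2-/- LSK arrays were lower than all 4 WT LSK arrays, at levels not shown to be above background. Fcer1a read 2.46 to 3.62 and was below the median on all 16 arrays.

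Transcripts that mark mature mast cells or basophils were likewise low. The basophil receptor Cd200r3 read 2.67 to 3.73, the chymase Mcpt4 2.92 to 3.83 and the tryptase Tpsb2 4.39 to 4.82, below the median on all 16 arrays. Fcer1g, the gamma chain that the IgE receptor shares with other Fc receptors, was above it on all 16 (5.40 to 7.07). Of 12 measured genes in a list of other granule proteases and granule proteins, 4 were above the array median on every array, among them the proteoglycan Srgn and the cathepsin Ctsg, which are made in many myeloid cells.

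Of the 7 measured genes, 5 had a lower level in LSK than MP cells when the difference was averaged over the 4 combinations of genotype and irradiation (limma with Benjamini-Hochberg adjustment over all rows, adjusted p under 0.05). Of all rows, 17.9% were lower by the same rule, and the median difference was -1.05 for the 7 genes against 0.12 for all rows. Hdc differed by -2.26 ± 0.18 (SE; 4.77-fold lower, adjusted p = 9.68e-06) and Mcpt8 by -1.81 ± 0.18 (3.51-fold lower, adjusted p = 3.46e-05). Cpa3 differed by -1.08 ± 0.19 (adjusted p = 0.00161) and Ms4a2 by -1.05 ± 0.14 (adjusted p = 0.000239), though Ms4a2 was above the array median on only 2 of 8 MP arrays and no LSK array. These 2 averages do not describe every combination. Cpa3 ran from -1.55 ± 0.39 in irradiated WT to -0.41 ± 0.39 in unirradiated Parp-2-/- cells. Ms4a2 ran from -1.64 ± 0.28 in irradiated WT to -0.12 ± 0.28 in unirradiated WT cells. Gzmb differed by -0.80 ± 0.17 (1.75-fold lower, adjusted p = 0.00457). Every LSK array was below its median for Gzmb and only 5 of 8 MP arrays were above theirs, so its size is not reliable. In these sorted populations, fewer cells that carry a transcript and less of it per cell cannot be told apart. The average was added after the data were seen, and these 5 calls were kept in every alternative run.

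**Figure D2:**
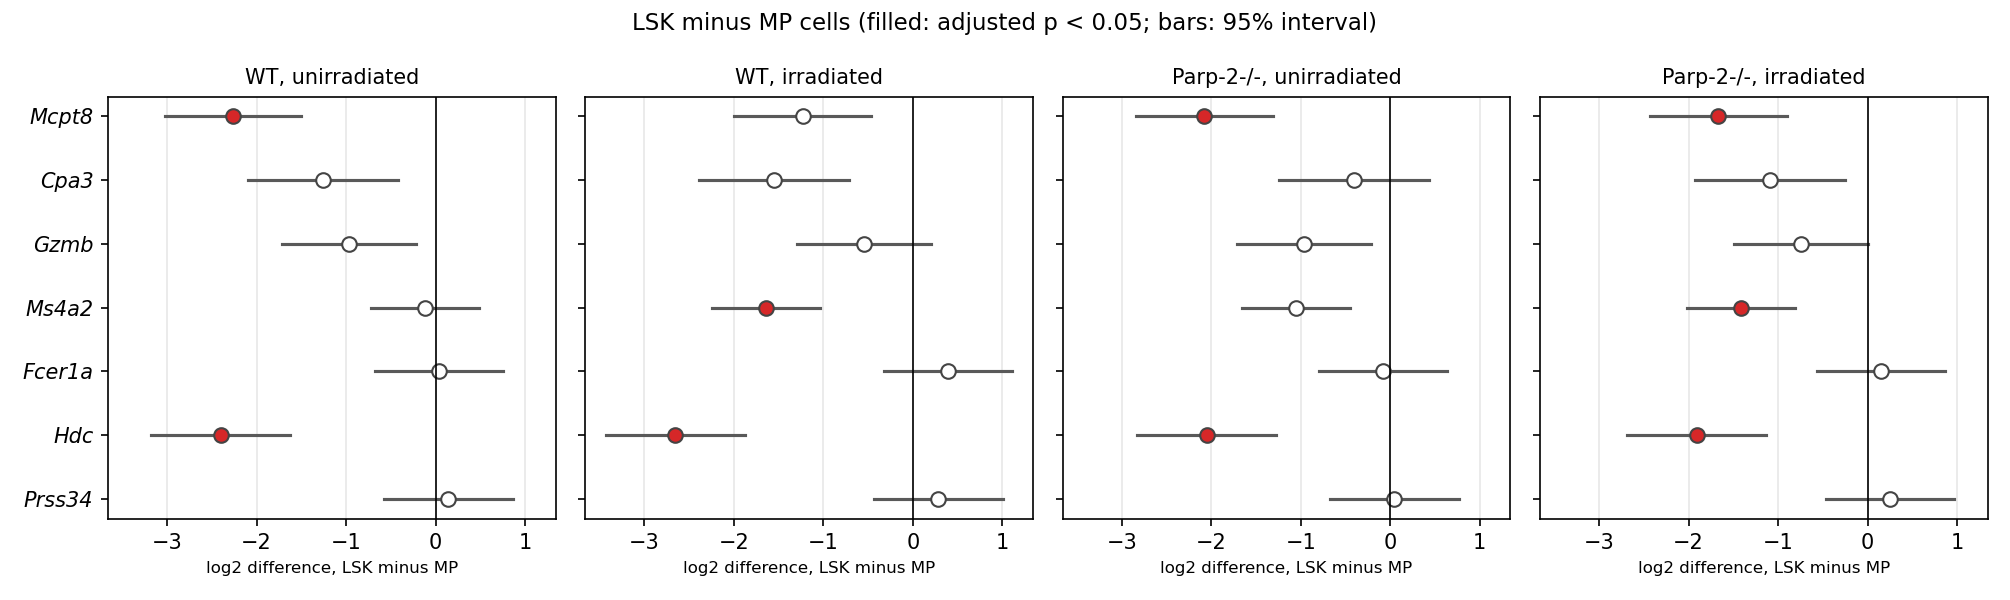
Difference in log2 level between LSK and MP cells for 7 genes (horizontal axis, LSK minus MP, with 95% intervals) in each combination of genotype and irradiation. Filled points have an adjusted p under 0.05. Hdc lies between -2.66 and -1.91 in the 4 panels, and Prss34 and Fcer1a lie near 0.

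Within single combinations the difference in Hdc passed the test each time. It was -2.40 ± 0.36 in unirradiated WT (adjusted p = 0.00467), -2.66 in irradiated WT (0.00616), -2.05 in unirradiated Parp-2-/- (0.0103) and -1.91 in irradiated Parp-2-/- cells (0.0143; limma). Leaving out 1 array ended some of these calls: WT MP pool 1 in the first (0.0532), either irradiated WT MP pool in the second (0.0833 and 0.078), either Parp-2-/- MP pool or Parp-2-/- LSK pool 2 in the third (0.0831, 0.0646 and 0.0516), and either irradiated Parp-2-/- MP pool or irradiated Parp-2-/- LSK pool 2 in the fourth (0.104, 0.0923 and 0.0507). The counts of genes called lower were 2 of 7 in unirradiated WT (3.93% of all rows), 2 in irradiated WT (1.87%), 2 in unirradiated Parp-2-/- (2.52%) and 3 in irradiated Parp-2-/- cells (3.19%).

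Mcpt8 differed between LSK and MP cells by -2.26 ± 0.35 in unirradiated WT (adjusted p = 0.00545) and by -2.08 ± 0.35 in unirradiated Parp-2-/- cells (adjusted p = 0.00929; limma). In irradiated cells the difference was -1.23 in WT (adjusted p = 0.0841) and -1.67 in Parp-2-/- (adjusted p = 0.0234). The WT value passed without irradiated WT LSK pool 2, at -1.78 (adjusted p = 0.0161), and without either irradiated Parp-2-/- LSK pool (0.0495). The call in unirradiated Parp-2-/- cells was lost without Parp-2-/- MP pool 1 (0.077). The call in irradiated Parp-2-/- cells was lost without either irradiated Parp-2-/- MP pool (0.172 and 0.0916) or irradiated Parp-2-/- LSK pool 2 (-1.19, 0.086). That call was also lost with only the arrays concerned in the fit (0.0711) and with rows without a symbol included (0.0604).

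In irradiated WT cells Ms4a2 was at least 3.11-fold lower in LSK than MP cells (-1.64 ± 0.28, adjusted p = 0.0133, limma), a lower bound because both LSK arrays were below their median. In irradiated Parp-2-/- cells the adjusted p was 0.0178, but all 4 arrays were below their median, so the size is not measured. The WT call was lost without either irradiated WT MP pool (0.145 and 0.104). The Parp-2-/- call was lost without either irradiated MP pool (0.0982 and 0.128) or irradiated LSK pool 1 (0.0764). Cpa3 differed by -1.55 ± 0.39 in irradiated WT cells, which did not pass (adjusted p = 0.0552), but did without irradiated WT LSK pool 2 (-2.05, adjusted p = 0.0186), with each array shifted to the same median (-1.66, adjusted p = 0.0422) and without rows below the array median on every array (adjusted p = 0.049).

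Mcpt8 rose after irradiation in WT LSK cells. The difference of 1.60 ± 0.35 (95% interval 0.83 to 2.36, 3.03-fold) passed the limma test at an adjusted p of 0.0422. It was the only one of the 7 genes to do so, against 1.18% of all rows that were higher and 1.8% that changed either way. The call was lost without irradiated WT LSK pool 2 (1.05, adjusted p = 0.142), without either WT LSK pool (0.0724 and 0.166) and without any 1 of the 8 MP arrays, which enter only through the pooled spread (0.0564 to 0.0715). It was kept without irradiated WT LSK pool 1 (adjusted p = 0.0176) or any 1 Parp-2-/- LSK array (0.0203 to 0.0495). With only the LSK arrays in the fit the adjusted p was 0.255, and with rows without a symbol included it was 0.0945.

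The other 6 genes did not pass in WT LSK cells. Gzmb and Cpa3 differed by 0.38 ± 0.35 and 0.29 ± 0.39, and Ms4a2 by -0.42 ± 0.28. Gzmb, Ms4a2 and Fcer1a were below the array median on every LSK array, so their sizes are not measured. In 3 of 7 genes (Mcpt8, Gzmb and Fcer1a) both irradiated pools lay above both unirradiated pools, as did 16.4% of all rows. The median difference of the 7 genes was 0.35 against -0.02 over all rows.

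**Figure D3:**
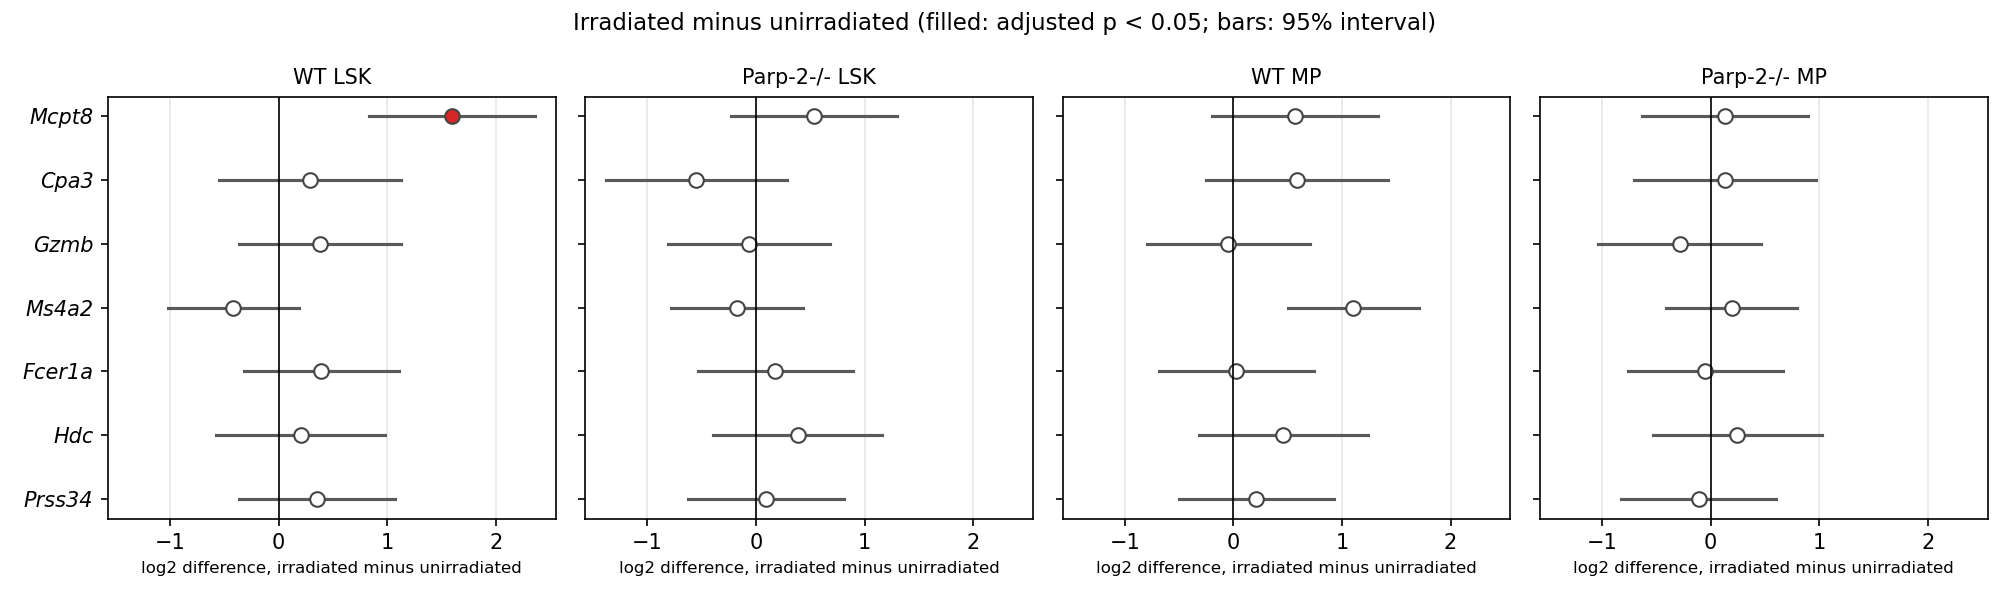
Difference in log2 level between irradiated and unirradiated cells (horizontal axis, with 95% intervals) for 7 genes in each combination of genotype and cell type. Filled points have an adjusted p under 0.05. Mcpt8 in WT LSK cells, at 1.60, is the only filled point, and Ms4a2 in WT MP cells lies at 1.11.

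In Parp-2-/- LSK cells no gene of the 7 passed after irradiation (1.47% of all rows did; limma), and none had an unadjusted p under 0.05 (11.8%). Mcpt8 differed by 0.54 ± 0.35 (95% interval -0.23 to 1.30) and Cpa3 by -0.55 ± 0.39. The difference between the genotypes' responses was tested directly. It was -1.06 ± 0.50 for Mcpt8 (95% interval -2.14 to 0.02, unadjusted p = 0.054, adjusted p = 0.531) and -0.83 ± 0.54 for Cpa3 (adjusted p = 0.677). No gene of the 7 passed this interaction test in limma (0.00871% of all rows did) or had an unadjusted p under 0.05 (9.52%). A call in WT and none in Parp-2-/- cells therefore does not show that the Mcpt8 responses differed.

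In MP cells no gene of the 7 passed after irradiation in either genotype (limma; 0.671% of all rows passed in WT and 0.588% in Parp-2-/-), and 1 of 7 in WT (6.24% of rows) and 0 of 7 in Parp-2-/- (5.75%) had an unadjusted p under 0.05. Both unirradiated WT MP arrays were below their median for Ms4a2, so its size there may be too small. Ms4a2 differed in WT MP cells by 1.11 ± 0.28 (adjusted p = 0.145). It passed in a fit of the MP arrays alone (adjusted p = 0.0116) and without either WT LSK pool (0.0144), whose Ms4a2 levels lay 1.09 apart. In WT MP cells Mcpt8, Cpa3 and Hdc differed by 0.56, 0.58 and 0.46, and both irradiated pools lay above both unirradiated pools for these 3 genes and Ms4a2 (4 of 7, against 17.5% of all rows). On the same arrays the summed log2 level of 9 measured erythroid markers was 60.8 to 61.1 against 67.1 to 75.3 unirradiated, and that of 7 eosinophil markers 38.0 to 38.1 against 33.9 to 34.4; their part was not tested. The Ms4a2 response in Parp-2-/- minus that in WT MP cells was -0.91 ± 0.39 (adjusted p = 1), and 0% of all rows passed this interaction test, with 1 of 7 genes and 0.867% of rows at an unadjusted p under 0.05.

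Averaged over the 4 combinations, Mcpt8 was higher after irradiation by 0.71 ± 0.18 (1.63-fold, adjusted p = 0.0337, limma). It was 1 of 7 genes called higher, against 3.31% of all rows. This average was also added after the data were seen. Its call was lost when any 1 of 11 arrays was left out (0.57 to 0.72, adjusted p 0.0516 to 0.093), among them irradiated WT LSK pool 2 (0.57, 0.0516), and when rows without a symbol were included (0.0793).

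In irradiated LSK cells 6 of the 7 genes had a lower mean in Parp-2-/- than in WT, and none passed the limma test (0.0174% of all rows did). Mcpt8 differed by -1.26 ± 0.35 (95% interval -2.02 to -0.49, unadjusted p = 0.00364, adjusted p = 0.278). Cpa3 differed by -0.90 ± 0.39 (adjusted p = 0.494), Ms4a2 by -0.65 ± 0.28 (0.494) and Gzmb by -0.47 ± 0.35 (0.718), while Hdc differed by 0.18 ± 0.36. Ms4a2 and Gzmb were below the array median on every LSK array, so their sizes are not measured. For Mcpt8, Cpa3, Gzmb and Ms4a2 both Parp-2-/- pools lay below both WT pools. That is 4 of 7 genes against 14.8% of all rows, and 3 of 7 had an unadjusted p under 0.05 against 9.55%. The 7 genes were chosen with earlier results of these data known and were measured on the same arrays. Such shares, here and in the other comparisons, are therefore only a description. The median difference was -0.47 for the 7 genes and -0.01 for all rows. Without irradiated WT LSK pool 2 the Mcpt8 difference was -0.71, and without pool 1 it was -1.81.

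**Figure D4:**
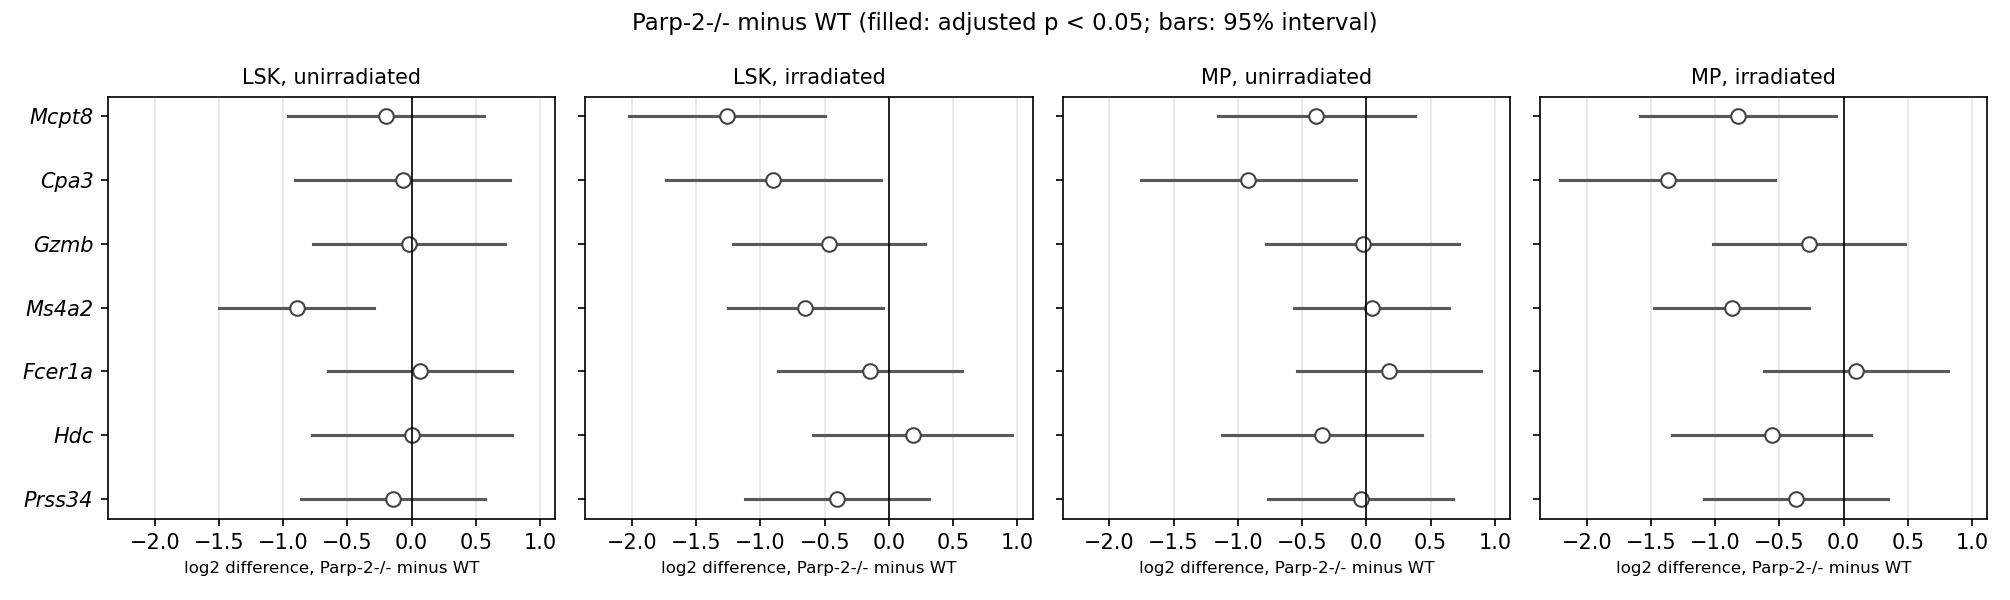
Difference in log2 level between Parp-2-/- and WT cells (horizontal axis, Parp-2-/- minus WT, with 95% intervals) for 7 genes in each combination of cell type and irradiation. No point is filled, since none had an adjusted p under 0.05. Mcpt8 lies at -1.26 in irradiated LSK cells, and Cpa3 at -1.37 in irradiated MP cells.

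In unirradiated LSK cells none of the 7 genes and 0% of all rows passed, with 1 of 7 genes and 9.31% of rows at an unadjusted p under 0.05 (limma). Mcpt8 differed by -0.20 ± 0.35 and Ms4a2 by -0.89 ± 0.28 (adjusted p = 0.314), and 2 of 7 genes had both Parp-2-/- pools below both WT pools (19.3% of all rows). Averaged over irradiation in LSK cells, Ms4a2 differed by -0.77 ± 0.20 (adjusted p = 0.263). None of the 7 genes passed this average (0.0479% of all rows did), and 2 of 7 had an unadjusted p under 0.05 (9.15%). Ms4a2 passed it without WT LSK pool 2 (-1.04, adjusted p = 0.0232). All 8 LSK arrays were below the median for Ms4a2, so the size is not measured.

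In MP cells none of the 7 genes passed between genotypes, irradiated (0.00871% of all rows) or not (0.00436%; limma). In irradiated MP cells Cpa3 differed by -1.37 ± 0.39 (unadjusted p = 0.00381), Ms4a2 by -0.87 ± 0.28, Mcpt8 by -0.82 ± 0.35 and Hdc by -0.56 ± 0.36, each at an adjusted p of 1. Both irradiated Parp-2-/- MP arrays were below their median for Ms4a2, so its size may be too small. Both Parp-2-/- pools lay below both WT pools in 5 of the 7 genes, against 18.3% of all rows, and 3 of 7 had an unadjusted p under 0.05, against 1.79%. Sums of some other markers did not overlap between these groups either. The erythroid sum was higher in irradiated Parp-2-/- than in irradiated WT MP cells. The eosinophil, granulocyte and monocyte progenitor, mature neutrophil, macrophage, and megakaryocyte and platelet sums were lower. Sums of B lymphocyte, T and NK cell, type 2 innate lymphoid cell, and stem cell and LSK markers did overlap. How often sums of such lists separate without a difference was not tested. In unirradiated MP cells Cpa3 differed by -0.92 ± 0.39 and Mcpt8 by -0.39 ± 0.35. There 1 of 7 genes had an unadjusted p under 0.05 (1.08% of all rows), and 1 of 7 had both Parp-2-/- pools below both WT pools (16%). The irradiated WT arrays stand in both the radiation and the genotype comparisons of a cell type, so these are not separate lines of evidence.

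Averaged over all 4 combinations, an average added after the data were seen, the genotype difference was -0.81 ± 0.19 for Cpa3 (adjusted p = 0.506), -0.67 ± 0.18 for Mcpt8 (0.619) and -0.59 ± 0.14 for Ms4a2 (0.506; limma). None of the 7 genes passed (0.00871% of all rows), and 3 of 7 had an unadjusted p under 0.05 against 5.34%. Ms4a2 passed without WT LSK pool 2 (-0.73, adjusted p = 0.0255). The Mcpt8 genotype difference in irradiated LSK cells minus that in irradiated MP cells was -0.44 ± 0.50 (adjusted p = 0.974), so the cell types were not shown to differ in it. None of the 7 genes passed that test (0.00436% of all rows did) or had an unadjusted p under 0.05 (5.16%).

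For several genes the 2 pools of an LSK group lay about 1 apart. In irradiated WT LSK cells pool 2 was above pool 1 by 1.10 for Mcpt8, 0.99 for Cpa3 and 0.65 for Hdc, and pool 1 was above pool 2 by 1.01 for Prss34. In irradiated Parp-2-/- LSK cells pool 1 was higher by 0.96 for Mcpt8, 0.69 for Hdc and 0.92 for Prss34, while Cpa3 was 0.43 higher in pool 2. The unirradiated LSK pools differed by at most 0.21 in Mcpt8, but in Parp-2-/- cells pool 1 was above pool 2 by 1.17 for Fcer1a, 1.08 for Hdc and 0.52 for Cpa3, and in WT cells by 1.09 for Ms4a2. Mcpt8 was 0.54 higher in pool 1 than in pool 2 of unirradiated Parp-2-/- MP cells.

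**Figure D5:**
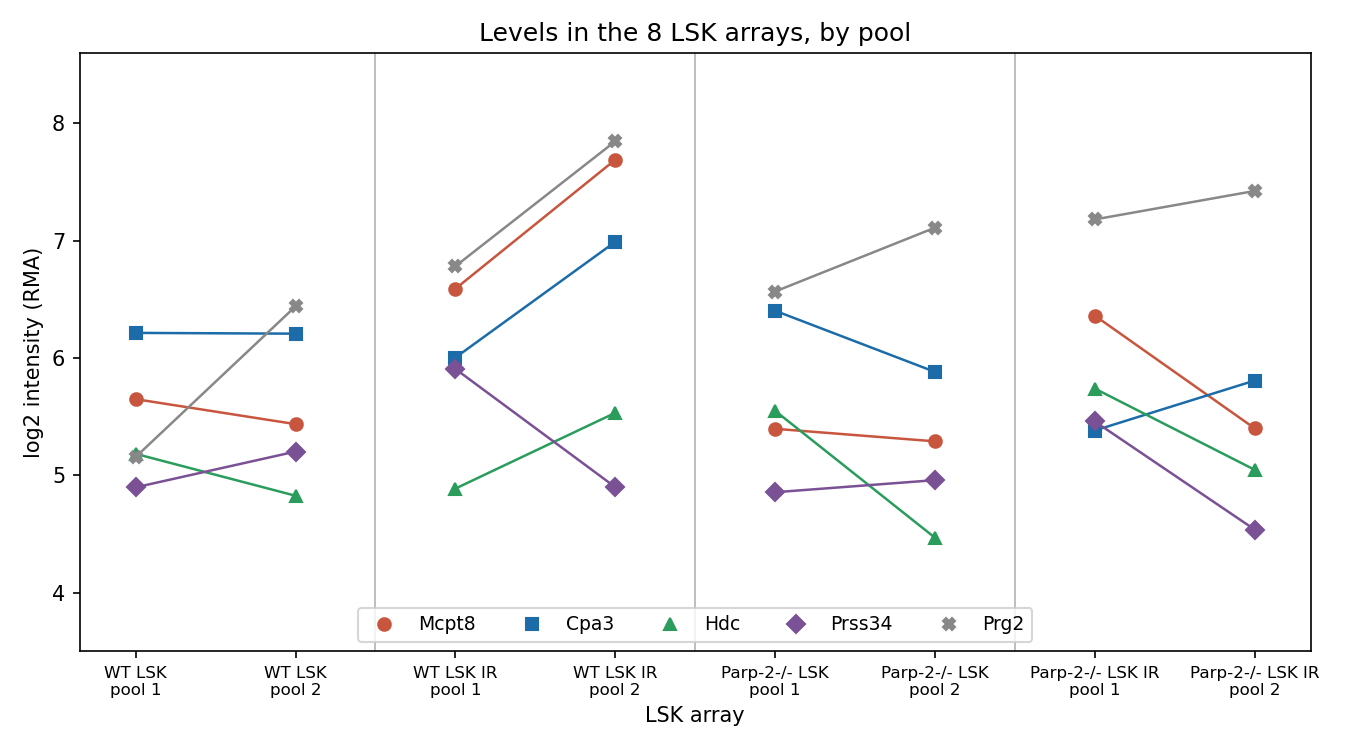
Log2 intensity on the 8 LSK arrays of Mcpt8, Cpa3, Hdc and Prss34 and of the eosinophil gene Prg2; a line joins the 2 pools of a group and marks no order. Mcpt8 runs from 6.59 to 7.69 between the irradiated WT pools, and Prg2 from 6.78 to 7.85.

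Genes known for eosinophils, granulocytes that also take part in allergic responses, were followed as well. Whether they mark only that cell type was not tested. After irradiation of WT LSK cells none of the 7 measured genes of a 10-gene eosinophil list passed, 5 of 7 differences were above 0, and the median was 0.08. Prg2, the major basic protein of eosinophil granules, read 5.16 and 6.44 in WT LSK cells and 6.78 and 7.85 after irradiation, a difference of 1.52 ± 0.40 that did not pass (limma, adjusted p = 0.0821). Ear6 and Prg3 differed by 1.36 and 1.03 (adjusted p = 0.112 and 0.274), Epx and Ccr3 by 0.08 and 0.07, and Siglecf and Il5ra by -0.43 and -0.10. In Parp-2-/- LSK cells Prg2 read 6.57 and 7.11 unirradiated and 7.18 and 7.42 irradiated, a difference of 0.46 ± 0.40 (adjusted p = 0.767). The summed log2 level of the 7 eosinophil genes was 31.3 to 31.9 in WT LSK, 33.4 to 36.9 in irradiated WT LSK, 31.7 to 33.9 in Parp-2-/- LSK and 34.1 to 36.0 in irradiated Parp-2-/- LSK cells. At most 5 of these 7 genes were above the array median on any LSK array, and the part of these cells in the Mcpt8 values was not tested.

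Markers of granulocyte and monocyte progenitors (8 of 9 measured) summed to 56.1 to 60.9 in WT LSK and 60.2 to 60.7 in irradiated WT LSK cells, and to 58.8 to 59.3 and 60.4 to 61.8 in the Parp-2-/- groups. One of them passed after irradiation in Parp-2-/- LSK cells, the neutrophil elastase gene Elane (1.63 ± 0.35, limma, adjusted p = 0.041, against 1.47% of all rows), and none in WT (1.8%). In WT LSK cells Elane read 6.33 and 5.55 unirradiated and 6.08 and 7.34 irradiated. A call in 1 genotype only does not show that the Elane responses differed. The 15 measured T and NK cell markers, which bear on Gzmb, summed to 64.3 to 65.7, 63.0 to 65.5, 61.8 to 63.9 and 61.7 to 63.0 in the same order, with at most 3 above the median on any LSK array and Cd3e below it on all 16 arrays. Their part in the values above was not tested.

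In MP cells the sums of other cell types' markers also differed between groups, not always in step with the 7 genes. The erythroid sum fell after irradiation in Parp-2-/- cells too, where Mcpt8 and Cpa3 each differed by 0.13. In unirradiated cells the eosinophil sum was higher in Parp-2-/- than in WT, while Mcpt8 and Cpa3 had a lower mean in Parp-2-/-. The 9 measured erythroid markers, all above the array median on every MP array, summed to 67.1 to 75.3 in WT and 60.8 to 61.1 in irradiated WT cells, and to 73.0 to 76.9 and 66.7 to 70.0 in the Parp-2-/- groups. All 9 had a lower mean after irradiation in WT, where 1 passed, the transferrin receptor gene Tfrc (-1.18 ± 0.22, limma, adjusted p = 0.0293, against 0.671% of all rows). All 9 had a higher mean in irradiated Parp-2-/- than in irradiated WT cells, and none passed. The 7 eosinophil markers summed to 33.9 to 34.4 in WT and 38.0 to 38.1 in irradiated WT cells, and to 35.0 to 35.5 and 35.2 to 35.6 in the Parp-2-/- groups. The 8 granulocyte and monocyte progenitor markers summed to 68.9 to 71.7 in WT and 72.2 in both irradiated WT pools, and to 68.0 to 69.5 and 67.9 to 70.5 in the Parp-2-/- groups. S100a8, a gene of neutrophils and monocytes, read 7.97 and 7.44 in irradiated WT and 6.07 and 5.43 in irradiated Parp-2-/- MP cells. Unirradiated MP cells also differed, at 6.54 to 6.97 in WT and 5.35 to 6.15 in Parp-2-/-. The irradiated WT MP group, which held the highest Mcpt8, Cpa3 and Ms4a2 levels, thus also had the lowest erythroid and the highest eosinophil sums of the MP groups, and the part of these cells in the values was not tested.

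Mcpt8 and Gzmb lie on chromosome 14 with Parp2, with 133 protein-coding genes between Parp2 and Mcpt8 and 7 between Mcpt8 and Gzmb (RefSeq, GRCm38.p6). Of 15 genes of the chymase and granzyme cluster, 13 were measured, and none passed between genotypes in irradiated LSK cells (0.0174% of all rows did). Their median difference was -0.08, with 7 of 13 below 0, and the neighbour Ctsg differed by 0.33. After irradiation of WT LSK cells Mcpt8, already described above, was the only one of the 13 that passed, against 1.8% of all rows.

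Other genes of the mast cell and basophil programme were followed in lists chosen with results of these data known. In irradiated LSK cells none passed between genotypes among 12 other granule genes, 19 IgE receptor signalling genes, 15 genes of the interleukin-33 pathway and type 2 cytokines, 12 histamine and lipid mediator genes, 22 surface receptors and 16 transcription factors (medians -0.09, 0.02, -0.06, 0.06, 0.04 and -0.07). Only 0.0174% of all rows passed there, so the lack of calls in short lists does not show that these genes were unchanged. After irradiation of WT LSK cells 1 gene of these 6 lists passed, against 1.8% of all rows: the transcription factor Runx1, which fell. A list of 10 genes, perforin and the granzymes besides Gzmb, had no call in either comparison, against 0.0174% and 1.8% of all rows.

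Runx1, a factor of blood stem and progenitor cells, fell by 1.09 ± 0.23 in WT LSK (adjusted p = 0.0368) and by 1.07 ± 0.23 in Parp-2-/- LSK cells (adjusted p = 0.0426; limma). Averaged over the 4 combinations 6 of 16 transcription factors fell after irradiation, against 2.49% of all rows: Runx1 (-0.83), Gata1 (-0.65), Gata2 (-0.65), Irf8 (-0.53), Ikzf1 (-0.45) and Stat5a (-0.39). Gata2, which mast cells and basophils need, read 6.26 to 6.66 on the 8 unirradiated arrays and 5.56 to 6.18 on the 8 irradiated arrays, so these did not overlap. How often rows separate in this way was not counted. The Mcpt8 average was higher after irradiation on the same arrays, and any link between these factors and Mcpt8 was not tested.

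Alox5, the 5-lipoxygenase that starts leukotriene synthesis, rose after irradiation by 1.98 ± 0.27 in WT MP (adjusted p = 0.0038) and by 2.1 ± 0.27 in Parp-2-/- MP cells (adjusted p = 0.0026; limma). It read 4.14 to 4.81 on unirradiated and 5.07 to 7.04 on irradiated arrays. Both unirradiated WT MP arrays were below their median, so the WT size may be too small. In LSK cells it differed by 0.99 and 1.0 (adjusted p = 0.0897 and 0.0973). Lta4h, the next enzyme towards leukotriene B4, was lower in WT LSK than in WT MP cells (-1.26 ± 0.24, adjusted p = 0.013).

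Across the 16 arrays, Mcpt8, Cpa3, Gzmb, Ms4a2 and Hdc correlated with each other at Pearson's r from 0.68 to 0.88, highest for Mcpt8 and Hdc. Fcer1a and Prss34 correlated with these 5 genes at -0.26 to 0.01. The points share the cell type difference, and each array serves every gene, so these values are a description. The genes with the most similar pattern were Met (0.94), Cept1 and Ap1g1 for Mcpt8, Ssr4 (0.97), Ly86 and Anxa3 for Hdc, and Zyg11b (0.90), Gstm4 and Mlkl for Cpa3. For Ms4a2 they were Prss57 (0.91), Rtraf and Ankrd44, for Gzmb Kif5b (0.88), Cry1 and Smg8, for Prss34 Ect2l (0.94), Ptprr and Xirp2, and for Fcer1a, always below the median, Septin3 (0.80), Pecr and Zfp821.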

How the data were processed

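RNA from each pool (RNeasy extraction, WT Sense Target labelling, per the labels' protocols) was hybridised to 1 Affymetrix array. The deposited values were used unchanged as log2 intensities, a scale read from their range. RMA, limma, affy (2.10) and R (2.15) are named in the submitters' processing notes, without roles. Of 34760 rows, 21640 carried 1 symbol, 1321 several and 11799 none, and the 22961 with a symbol were tested. Samples were grouped by their titles. A linear model of 8 group means over 16 arrays was fitted in limma 3.58.1 (R 4.3.3) with moderated variances (8 residual and 4.35 prior degrees of freedom), 2-sided tests and Benjamini-Hochberg adjustment over the tested rows per comparison, called at 0.05. The script was tested on simulated data. Members and lists were chosen with earlier results of these data known. Genes named from a list were the up to 4 with the largest absolute difference in a comparison described, and the most similar genes were the 3 with the highest correlation over arrays; Tpsb2, Mcpt4, Cd200r3, Fcer1g, Srgn, Cd3e, Stat5a, Ikzf1, Ccr3, Il5ra and Kit were named after their values were seen. Alternatives were quantile normalization, median centring, fewer arrays or other rows in the fit, an intensity trend, a pool block and leaving out each array.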

Additional observations from a re-analysis of the deposited data

How the results depend on the processing

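Of 133 combinations of a gene and a comparison, 16 were called; 6 of these were called in every alternative (the 5 averaged cell type differences and Mcpt8 in unirradiated WT cells), and none changed sign. In 58 combinations, none called, the sign changed in some alternative, the largest at a difference of 0.47, and in 9 of them also in an alternative other than leaving out 1 array. With only the arrays concerned in the fit, the count for radiation in WT LSK cells went from 1 to 0 and that in WT MP cells from 0 to 1; with all rows of the table, the counts for radiation in WT LSK cells and for the average radiation response both went from 1 to 0. Without 1 array, the counts ran from 0 to 1 for radiation in WT LSK, in WT MP and on average, and for genotype in LSK cells averaged over irradiation and over all 4 combinations. For LSK against MP cells they ran from 1 to 3 (WT, unirradiated), 0 to 3 (Parp-2-/-, unirradiated), 0 to 4 (WT, irradiated) and 0 to 3 (Parp-2-/-, irradiated). Among the differences given with their values, those that changed sign did so without 1 array: Cpa3 and Ms4a2 after irradiation in WT LSK cells (-0.21 to 0.78 and -0.96 to 0.13), the Hdc genotype difference in irradiated LSK cells (-0.16 to 0.53), Ms4a2 in unirradiated WT cells, LSK minus MP (-0.66 to 0.43), Cpa3 in unirradiated Parp-2-/- cells, LSK minus MP (-0.87 to 0.060), and the Mcpt8 genotype difference in irradiated LSK minus MP cells (-0.99 to 0.11). A group left with 1 array was taken to vary like the others. The causes were not tested. The labels name no pairing of pools. Over 28 pairs of groups the deviations of same-numbered pools correlated at -0.17 to 0.23, over 0.1 in 2. These values cannot decide whether same-numbered pools shared mice. With the pool number as a block, the count for radiation in WT LSK cells stayed at 1 (Mcpt8, adjusted p = 0.0497) and no other count moved by over 1.5 times. Each gene had 1 row, so another row of the same gene could not be tried. With 2 pools per group, intervals are wide, and levels below the array median have no reliable size.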
